A study of Homo sapiens with 14 samples.

Results

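The mitochondrial ribosomal proteins were taken as every gene whose symbol in the count tables starts with MRPL or MRPS followed by a digit. The knockout tables held 77 such genes of 19114, with 48 MRPL and 29 MRPS symbols and 4 guides each. The activation tables held 76 of 18886, with 48 MRPL and 28 MRPS symbols, of which 72 had 3 guides and 4 had 2. MRPL2 and MRPS18C were listed for knockout only and MRPL58 for activation only, so 75 genes were in both. The knockout tables list the MRPL58 gene under its older name ICT1, and it is given below with the subunits that carry other names.

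The mitochondrial ribosome translates the few messenger RNAs made from mitochondrial DNA, all of which code for subunits of the respiratory chain and ATP synthase. Its ribosomal RNAs come from mitochondrial DNA, but all its proteins are encoded in the nucleus, made in the cytosol and imported. The large subunit forms the peptide bond and releases the chain towards the inner membrane, and the small subunit decodes the message. Compared with its bacterial ancestor, the human particle has lost ribosomal RNA and gained many proteins that bacteria lack. Names do not always follow structure: MRPS18A and MRPS30 sit in the large subunit, and MRPS36 is a part of the 2-oxoglutarate dehydrogenase complex instead of the ribosome. The subunits below go by symbol, with the assignment by structure beside it where stated.

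Guides were counted in genomic DNA from pooled screens in 2 colorectal cancer lines, RKO and SW620. Cells with Cas9 carried the Brunello knockout library, and cells with dCas9-VP64, a catalytically dead Cas9 fused to a transcriptional activator, carried the Calabrese activation library. The groups were RKO at day 20 with 1.9 µM oxaliplatin, at day 20 untreated and at day 0, and SW620 at day 0, at day 20 untreated, and at day 20 with 0.38 or 0.5 µM oxaliplatin, each in both libraries. All cells had been through blasticidin and puromycin selection, and the labels do not say whether the Cas9 and dCas9-VP64 lines are clones or pools. Oxaliplatin is a platinum drug that forms DNA adducts and also disturbs ribosome production. With 1 library per condition (14 in all), every test compares 2 libraries through the guides of a gene, not conditions over replicates. Guide counts carry no expression, so the lines could not be checked against marker levels.

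The libraries held between 3647823 counts (SW620 activation, untreated) and 69526489 counts (SW620 knockout, day 0). Treated libraries were less even: the top 1% of guides held 41.4% of the counts in RKO knockout cells with oxaliplatin, against 3.88% in untreated RKO knockout cells, and 52.8% in RKO activation cells with oxaliplatin, against 2.70% in untreated ones. In the RKO activation library with oxaliplatin, 14.3% of guides had no count. A guide's value is its log2 fold on counts scaled by the median ratio, with a pseudocount of 5, and a gene's value is the median over its guides. A gene was called depleted or enriched where its exact rank-aggregation p, adjusted over all genes, was below 0.10. Folds were centred among guides of like count before ranking, so a gene counted as enriched can have a median below 0.

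Knocking out mitochondrial ribosomal proteins was followed by loss of the cells from the RKO pool within 20 days without drug. Their 308 guides held 0.102% of all counts at day 20 (95% Wilson interval 0.101 to 0.103) and 0.369% at day 0 (0.367 to 0.371). All 77 genes had a median log2 fold below 0, and their median was -2.42, against 0.09 for all genes and 0.51 for the non-targeting guides. Of the 77, 55 were called depleted and 0 enriched, where 6.69% of the 19093 genes tested were called depleted and 0.0105% enriched. At an unadjusted exact p below 0.05, 69 of the 77 were depleted and 0 enriched, beside 10.8% and 6.04% of all genes. In 67 genes every guide that passed the count filter was below 0, and 65 of the 77 lay among the lowest 10% of genes. Of single guides, 96.7% of the members' and 44.8% of all targeting guides were below 0.

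Both subunits fell. The large subunit had 30 of 48 genes called and a median of -2.37 (median interval -2.85 to -2.19), and the small subunit 25 of 29 and -2.80 (-3.47 to -1.97), so the medians lie within each other's intervals. The shares called depended on how guides were ranked. In the test used throughout, each guide is ranked among guides of like mean count in the 2 libraries, which sets a strongly lost guide against other lost guides. When guides were ranked among those of like day 0 count, 41 of 48 large and 25 of 29 small subunit genes were called, 66 of 77 in all, where 9.84% of genes were. By structure the counts were 32 of 50 for the large and 23 of 26 for the small subunit, with medians of -2.37 and -2.90. Of the genes specific to mitochondria, 26 of 30 were called, with a median of -2.92, and of those with a bacterial counterpart 29 of 46, with -2.34. MRPS18A and MRPS18B, which are distant relatives of a bacterial protein, are counted there as specific to mitochondria, and counting them with the conserved proteins gives 24 of 28 and 31 of 48, a choice made after seeing the data. The counts by structure and by origin come from the ranking by mean count, on which the share of large subunit genes called depended. These contrasts between sets of members were not tested.

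Among small subunit genes, MRPS16, which in bacteria takes part in assembly of the subunit and in humans is mutated in a respiratory chain deficiency, had the smallest p. Its 4 guides had 53, 9, 30 and 18 counts in untreated RKO cells at day 20, against 552, 361, 566 and 345 at day 0. Every guide dropped between these 2 libraries. The median log2 fold was -3.95, with guides between -4.60 and -3.29 and an exact rank-aggregation adjusted p of 0.000387. MRPS7, which binds the head of the small subunit, had a fold of -3.86 (adjusted p = 0.00046, exact). MRPS12, which lines the decoding site and in bacteria is the target of streptomycin resistance mutations, had -3.83 (adjusted p = 0.00182, exact). MRPS2, another conserved protein, had -4.10. Mitochondria-specific small subunit proteins passed too, with MRPS33 at -3.19, MRPS25 at -2.80 and MRPS22, mutated in a respiratory chain deficiency, at -2.79.

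Among large subunit genes, MRPL4 had the lowest value of all 77. Its 4 guides had 1, 15, 1 and 0 counts in untreated RKO cells at day 20, against 242, 336, 181 and 151 at day 0. The gene is near the floor of the measurement: all but 1 of its guides had at most 1 count left. Its median log2 fold was -4.61, where 0.566% of genes were lower, and its exact rank-aggregation adjusted p was 0.0162. The large subunit genes with the smallest p values were MRPL34 (-2.36, adjusted p = 0.000587, exact), MRPL54 (-2.46), MRPL17 (-2.35), MRPL40 (-2.42), MRPL38 (-4.05) and MRPL41 (-3.37). MRPL34 and MRPL17 have bacterial counterparts, while MRPL38, MRPL40, MRPL41 and MRPL54 are specific to mitochondria. MRPL34 had the tightest guides of these, between -2.84 and -2.30.

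MRPL57, a mitochondria-specific large subunit protein, was strongly lost without being called. Its guides had 0, 31, 0 and 0 counts in untreated RKO cells at day 20, against 286, 190, 111 and 146 at day 0. The median log2 fold of -4.35 was the third lowest of the 77, and 4 of 4 guides were below 0, yet the exact adjusted p was 0.106 and the gene was not called. Ranked among guides of like day 0 count, it had an exact adjusted p of 0.00346. With most guides at 0, the size of its fold rests on the pseudocount.

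Some positions on the particle were looked up after the values had been seen. MRPL10, MRPL11 and MRPL12 form the stalk that recruits translation factors, and all 3 were called, at -2.53, -3.46 and -2.84. MRPL22, MRPL23, MRPL24 and MRPL45 are some of the proteins around the exit of the peptide tunnel, with folds of -1.72, -2.27, -1.21 and -3.09. They are not the full set at that site. None of these 4 was called when guides were ranked by mean count, and all 4 were when guides were ranked by day 0 count. The 3 genes related to the bacterial protein S18 were MRPS18A at -4.35 (adjusted p = 0.00162, exact), MRPS18B at -2.21 (adjusted p = 0.00521, exact) and MRPS18C at -1.97 (adjusted p = 0.106, exact).

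The weakest members were MRPL1 at -0.47, MRPL21 at -0.73, MRPL9 at -0.73 and MRPL42 at -0.76. MRPL1 forms the mobile stalk beside the site where spent transfer RNA leaves, and MRPL9 lies at its base. The 4 guides of MRPL1 had 83, 427, 167 and 66 counts in untreated RKO cells at day 20, against 172, 508, 252 and 59 at day 0. MRPL21, with guides between -1.89 and -0.57, was called (adjusted p = 0.0114, exact), and MRPL1, MRPL9 and MRPL42 were not. MRPS36, which is no ribosomal protein, was not called either, at -0.92. Values within a gene also differed: the range between the lowest and the highest guide had a median of 3.04 log2 units over the 77 genes.

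In SW620 cells the same knockouts were lost far less over 20 days without drug. The 77 genes had a median log2 fold of -0.41, against 0.04 for all genes and 0.25 for the non-targeting guides, and 66 of them were below 0. Their guides held 0.300% of counts at day 20 (95% Wilson interval 0.298 to 0.301) and 0.380% at day 0 (0.379 to 0.382). Below 0 were 77.7% of the member guides and 46.6% of all targeting guides. Called depleted were 13 of 77 and enriched 0, where 3.53% of 19099 genes were called depleted and 0.00524% enriched. At an unadjusted exact p below 0.05, 40 members were depleted and 2 enriched, beside 8.76% and 5.88% of all genes. Ranked by day 0 count, 12 of 77 were called, where 3.76% of genes were. The large subunit had 6 of 48 genes called and a median of -0.38, and the small subunit 7 of 29 and -0.43.

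**Figure D1:**
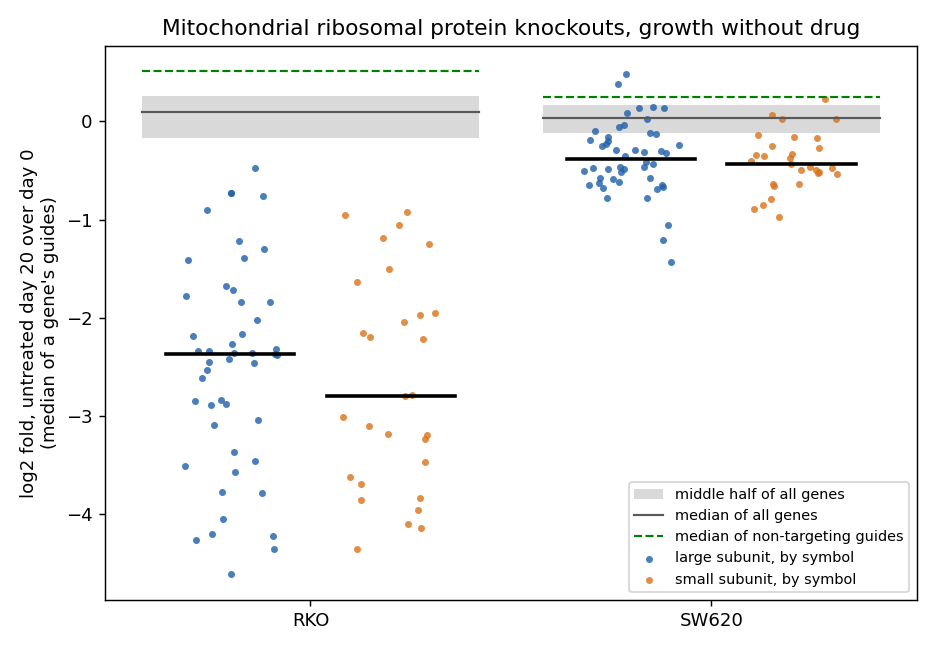
Median log2 fold of each mitochondrial ribosomal protein's guides in the knockout screens, untreated day 20 over day 0, in RKO and SW620. Each point is a gene, black bars are the medians of the large and small subunit (by symbol), the grey band is the range between the quartiles of all genes, and dashed lines are the medians of the non-targeting guides. All 77 points lie below 0 in RKO, while the medians in SW620 are -0.38 and -0.43.

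MRPL57 stood lowest in SW620. Its guides had 241, 120, 67 and 56 counts in untreated SW620 cells at day 20, against 622, 490, 290 and 286 at day 0. Every guide dropped, with a median log2 fold of -1.43, and the exact rank-aggregation adjusted p was 0.0181. MRPL33 followed at -1.20 without passing (adjusted p = 0.216, exact), though it passed when guides were ranked by day 0 count (adjusted p = 0.0250, exact), and MRPL41 at -1.06 (adjusted p = 0.0105, exact). The lowest small subunit gene was MRPS34, a mitochondria-specific protein mutated in a childhood respiratory chain disease, at -0.98 (adjusted p = 0.0198, exact). MRPS7 (-0.65), MRPS16 (-0.89), MRPS18A (-0.79), MRPS21 (-0.63), MRPL40 (-0.52), MRPL4 (-0.65), MRPL17 (-0.58), MRPS12 (-0.64), MRPS18B (-0.38) and MRPL14 (-0.62) passed as well. At the other end, MRPL1 had 0.49, MRPL9 0.38 and MRPS15 0.22, and none of these was called.

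The difference between the lines was tested guide by guide, as the RKO fold minus the SW620 fold. All 77 genes were lower in RKO, by a median of -2.09 log2 units, where all genes had 0.01. Called lower in RKO were 54 of 77 and higher 0, where 7.01% of 19093 genes were called lower and 0.0314% higher. At an unadjusted exact p below 0.05, 69 members were lower and 0 higher, beside 10.8% and 6.07% of all genes. Ranked by day 0 count, 64 of 77 were called lower, where 8.19% of genes were. The large subunit had 34 of 48 genes called and a median difference of -2.0, and the small subunit 20 of 29 and -2.32. The number of divisions that each line made in 20 days is not given in the labels, so a difference in growth rate and a difference in the need for the gene cannot be told apart.

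Depleted in both lines were 12 genes, which is 21.8% of the RKO calls and 92.3% of the SW620 calls. Over all genes the overlap was 400, which is 31.3% of the RKO calls and 59.4% of the SW620 calls. In RKO 71.4% of the members and 6.69% of all genes were called, and in SW620 13 of 77 members and 3.53% of all genes. The shares of RKO calls and of SW620 calls therefore both have unlike backgrounds, and nothing is read from them. The 12 members were MRPL4, MRPL14, MRPL17, MRPL40, MRPL41, MRPS7, MRPS12, MRPS16, MRPS18A, MRPS18B, MRPS21 and MRPS34. MRPL57 was called in SW620 and not in RKO, 43 genes were called in RKO and not in SW620, and 21 in neither. All these counts come from the ranking by mean count. Ranked by day 0 count, MRPL57 was called in both lines (exact adjusted p of 0.00346 in RKO and 0.00497 in SW620). Across the 77 genes the medians of the 2 lines had a Spearman rho of 0.58 and a Pearson r of 0.56, as a description: both lines used the same guides, and genes are not independent replicates.

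**Figure D2:**
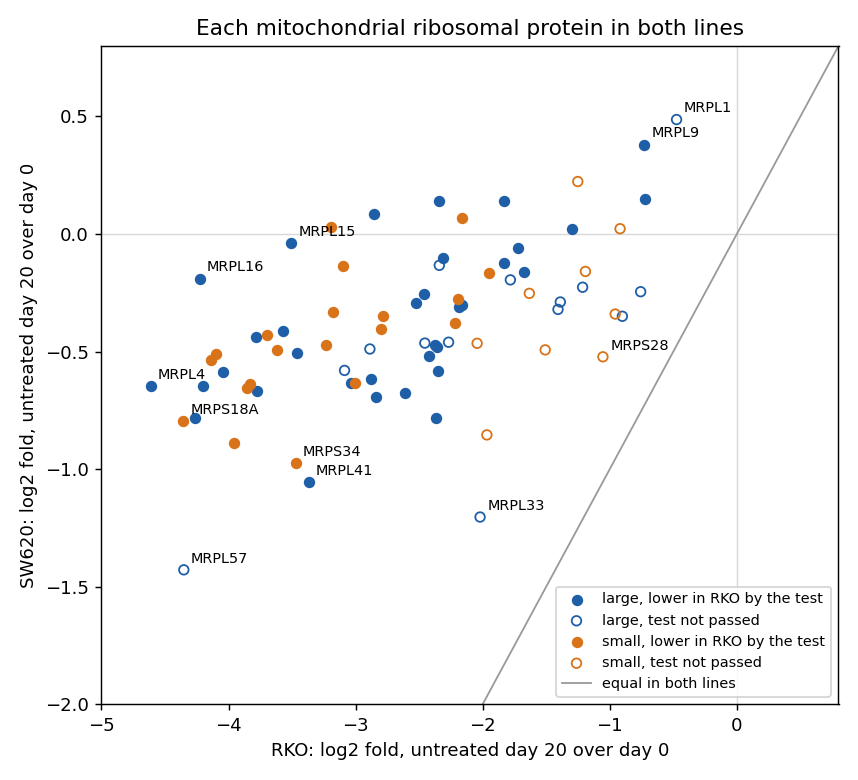
Log2 fold of each of the 77 mitochondrial ribosomal proteins over 20 untreated days in RKO (x axis) and SW620 (y axis), each the median of a gene's guides. Filled points passed the test of the difference between lines (54 genes, all lower in RKO), open points did not, and the grey line marks equal values. Every point lies left of the line.

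MRPL15 had one of the smallest p values of the difference. MRPL15 belongs to the conserved core of the large subunit. Its guides had 14, 47, 2 and 63 counts in untreated RKO cells at day 20, against 941, 295, 157 and 439 at day 0. In SW620 the same guides had 577, 313, 189 and 742 counts at day 20, against 2129, 482, 271 and 1138 at day 0. These counts are not scaled for depth: the factors that divide them were 1.24 at day 20 and 1.85 at day 0 in SW620. The first guide fell more than the others there. The medians were -3.50 in RKO and -0.04 in SW620, a difference of -3.49 over guides (adjusted p = 0.00292, exact). The largest differences, both near -3.98 log2 units, were those of MRPL43 and MRPL16. MRPL43 had -4.20 in RKO and -0.65 in SW620, and MRPL16 had -4.23 and -0.19. MRPS33, at -3.19 in RKO, had 0.03 in SW620. The smallest differences were those of MRPS28 (-0.51), MRPL50 (-0.56) and MRPS31 (-0.62), none of which passed.

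The rest of the mitochondrial translation apparatus gave the context. Of 19 genes that charge mitochondrial transfer RNAs, 16 were called depleted in RKO, with a median of -3.73, led by PARS2 (-4.74) and YARS2 (-4.10), the prolyl and tyrosyl enzymes. In SW620, 8 of the 19 were called, with a median of -0.52, led by MARS2 (-1.69) and YARS2 (-1.35). Of 13 translation factors, 3 were called in RKO and 2 in SW620, with medians of -1.08 and 0.08. GFM1, an elongation factor that moves the ribosome along the message, was called in both, at -3.29 in RKO and -0.59 in SW620, and so was TUFM, which delivers charged transfer RNA, at -4.56 and -0.94.

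Of 24 ribosome assembly genes, 10 were called depleted in RKO and 3 in SW620, with medians of -1.57 and 0.03. RPUSD4, a pseudouridine synthase acting on the large ribosomal RNA (-4.79 in RKO and -0.84 in SW620), and MTG1, a GTPase (-4.13 and -0.60), had the smallest p in both lines. NOA1, a GTPase of the same list, was the single gene called enriched in SW620, at 0.77 (adjusted p = 0.0972, exact), and it was not called when guides were ranked by day 0 count (adjusted p = 0.395, exact). Of 6 ribosomal subunits with other names, 2 were called in each line, namely PTCD3 (-2.88) and DAP3 (-3.52) in RKO and PTCD3 (-0.84) and GADD45GIP1 (-1.04) in SW620. ICT1, the MRPL58 gene, which frees stalled chains, had -1.22 in RKO and 0.34 in SW620 and was not called. Of 6 mitochondrial transcription genes, 3 were called in RKO, led by the RNA polymerase POLRMT (-5.04) and TFAM (-4.21), and 0 in SW620, where 1 was below an unadjusted exact p of 0.05.

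Other large complexes were set beside the members. The 87 cytosolic ribosomal proteins had medians of -2.98 in RKO and -0.74 in SW620, and the mitochondrial ones -2.42 and -0.41. Ranked by day 0 count, 47 of them were called in RKO and 45 in SW620, and of the 77 mitochondrial ones 66 and 12. The 47 NDUF genes, most of which encode subunits and assembly factors of respiratory complex I, had medians of -2.10 in RKO and 0.18 in SW620. Called were 20 and 0 of them, or 30 and 0 when ranked by day 0 count. In SW620, 1 NDUF gene was depleted and 10 enriched at an unadjusted exact p below 0.05, beside 8.76% and 5.88% of all genes. By the difference between lines, ranked by day 0 count, 49 of the 87 cytosolic ribosomal proteins were called lower in RKO. So were 32 of the 47 NDUF genes and 64 of the 77 members. No test of members against these sets was made.

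Oxaliplatin was followed in RKO by a smaller deficit of the same knockouts. Against untreated RKO cells at day 20, the 77 genes had a median log2 fold of 0.89 with 1.9 µM, where all genes had 0.06 and the non-targeting guides 0.25, and 67 of the 77 were above 0. Below 0 were 27.0% of the member guides and 48.2% of all targeting guides. The large subunit had a median of 0.76 and the small subunit 1.2. Called enriched were 2 of 77, MRPL15 and MRPS5, and depleted 0, where 0.409% of 19093 genes were called enriched and 0.00524% depleted. At an unadjusted exact p below 0.05, 18 of 77 members were enriched and 0 depleted, beside 6.54% and 5.62% of all genes. The members' share of all counts was not higher with the drug, at 0.0962% (95% Wilson interval 0.0951 to 0.0972), against 0.102% in untreated cells. By subunit it was lower for the large one, at 0.0462% with the drug (0.0455 to 0.0469), against 0.0583% in untreated cells (0.0575 to 0.0592). It was higher for the small one, at 0.05% (0.0492 to 0.0507), against 0.0435% (0.0428 to 0.0442), and a single MRPS11 guide held 7.29% of all member counts in the treated library. The folds are relative to the median guide of each library, and in the treated one the top 1% of guides held 41.4% of the counts.

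The guides were still well below their starting level in the treated RKO cells. Against day 0, the 77 genes had a median log2 fold of -1.96 with oxaliplatin and -2.42 in untreated cells, which share that day 0 library. The non-targeting guides had 0.74 with oxaliplatin and 0.51 untreated, and all guides -0.07 and 0.07. Called depleted against day 0 were 9 of 77 with oxaliplatin and enriched 0, where 2.09% of genes were called depleted and 0.0314% enriched. At an unadjusted exact p below 0.05, 44 were depleted and 1 enriched, beside 8.11% and 6.98% of all genes. MRPS7 (-2.26) and MRPS16 (-2.85) had the smallest p of these. The median guide of the members had a scaled count of 65 with oxaliplatin, 41.2 untreated and 254 at day 0.

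**Figure D3:**
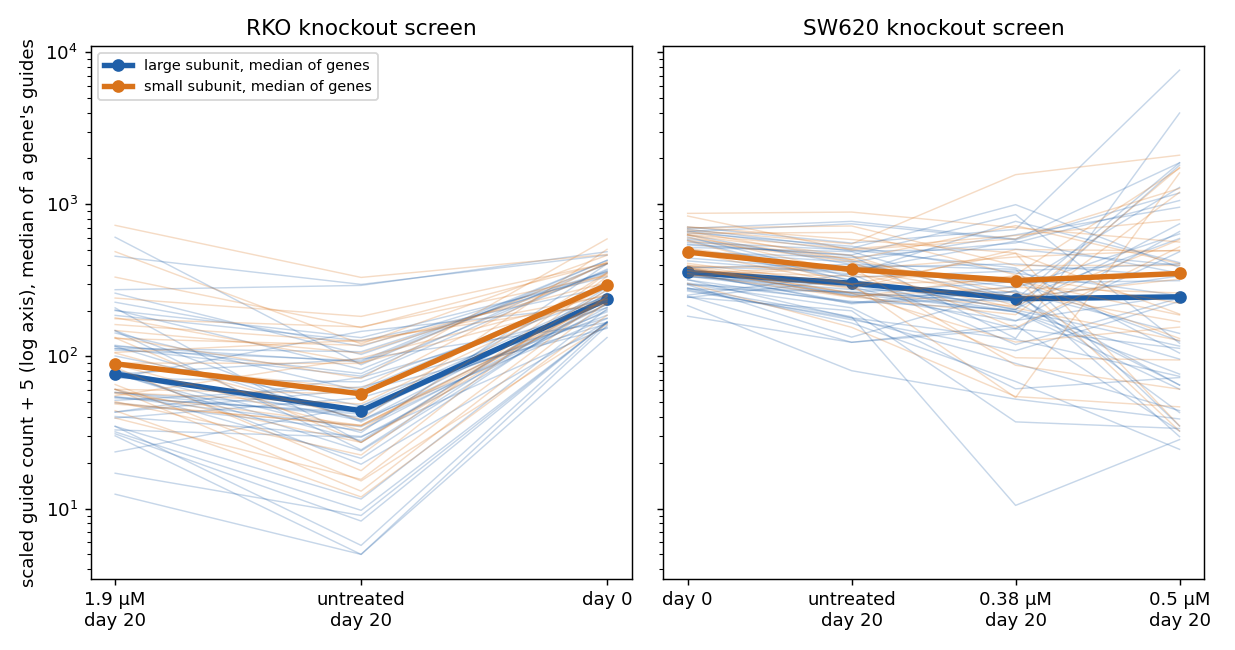
Scaled guide count plus 5, on a log axis, in each library of the knockout screens, as the median of a gene's guides. Thin lines are genes and thick lines the medians of the large and small subunit. In RKO (oxaliplatin, untreated, day 0 from left to right) the thick lines are lowest in the untreated library, and in SW620 (day 0, untreated, 0.38 µM, 0.5 µM) the genes spread apart with dose.

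MRPL15 and MRPS5 passed in different ways. The 4 guides of MRPL15 had 110, 223, 9 and 109 counts with oxaliplatin, against 14, 47, 2 and 63 in untreated RKO cells. All 4 were higher, and the median log2 fold was 2.72 (adjusted p = 0.0332, exact), with guides between 1.75 and 3.78. MRPS5 lies where the messenger RNA enters the small subunit. Its guides had 110, 27, 289 and 18 counts with oxaliplatin, against 381, 34, 0 and 27 in untreated RKO cells. These counts are not scaled for depth, and after scaling 3 guides were above 0 and 1 below. A single guide, absent from the untreated library, carried the call: the 4 folds ran from -0.43 to 6.76, with a median of 0.76 (adjusted p = 0.0689, exact).

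Both calls depended on how guides were ranked. Ranked by the untreated count, MRPL15 had an exact adjusted p of 0.784 and MRPS5 of 0.898, and 0 of the 77 members were called, where 0.304% of genes were called enriched. Against day 0, MRPL15 was at -1.25 and MRPS5 at -1.66 in the treated cells, neither called. Larger or similar median folds without a call were seen for MRPS23 (2.95), MRPL38 (2.74) and MRPL55 (2.67). MRPL38 had all its guides between 2.55 and 3.21 and an exact adjusted p of 0.196. The lowest values were those of MRPL3 (-0.78), MRPL19 (-0.61) and MRPL50 (-0.61), none called.

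**Figure D4:**
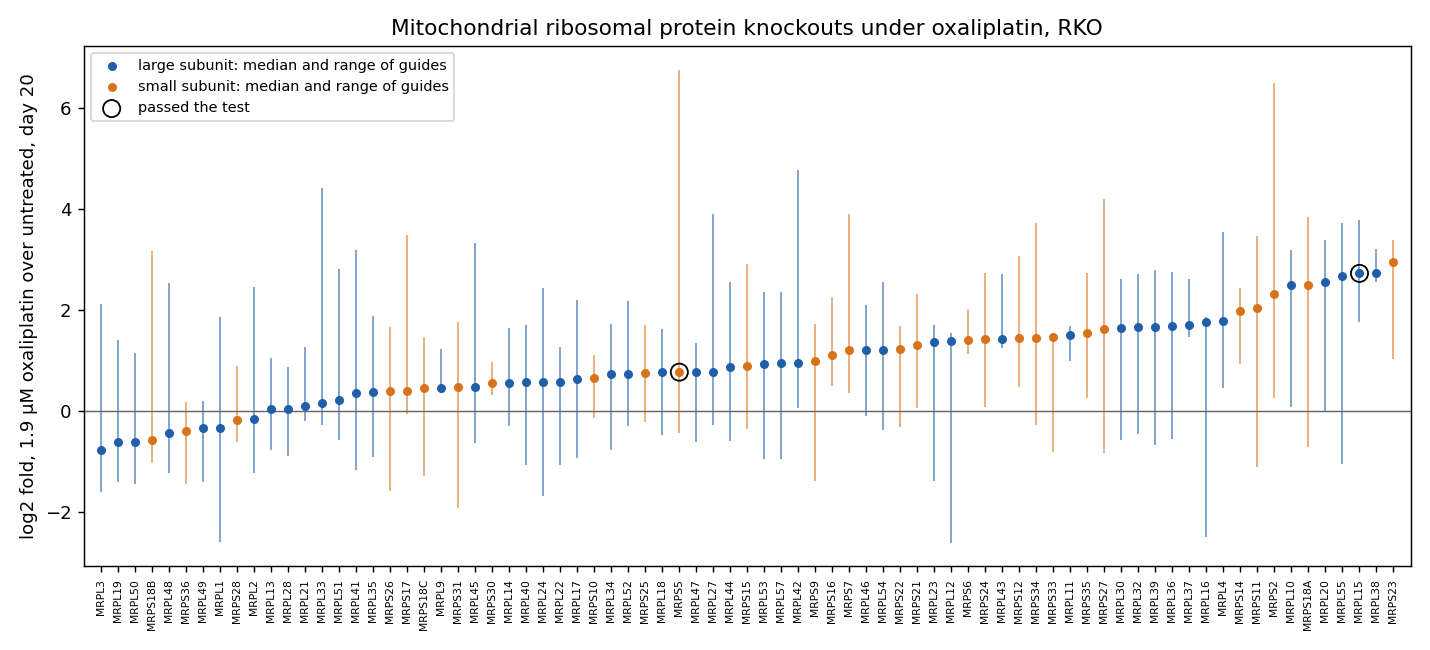
Log2 fold of each of the 77 mitochondrial ribosomal proteins in RKO knockout cells, 1.9 µM oxaliplatin over untreated at day 20, sorted by value. Points are the medians and bars the full range of a gene's guides, and circles mark MRPL15 and MRPS5, the genes that passed the test. Most points lie above 0 (67 genes), with wide ranges of guides.

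Other genes lost during untreated growth of RKO were also above 0 with oxaliplatin. The median log2 fold was 0.91 for the cytosolic ribosomal proteins, 1.19 for the NDUF genes and 1.76 for the 19 genes that charge mitochondrial transfer RNAs. Of these 19, MARS2, the methionyl enzyme, was called enriched, at 2.79 (adjusted p = 0.098, exact), and of the NDUF genes 5 were, where 0.409% of all genes were. Ranked by the untreated count, MARS2 (adjusted p = 0.678, exact) and all 47 NDUF genes missed the threshold. Translation factors had a median of 0.51 and ribosome assembly genes 0.84, with 0 called. The untreated library is the denominator here and also shows the growth losses, and whether treated cells divided fewer times was not tested.

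In SW620, no member passed at either dose. The median log2 fold over untreated cells was -0.33 at 0.38 µM and -0.78 at 0.5 µM, where all genes had 0.04 and -0.10 and the non-targeting guides 0.29 and 0.99. At 0.38 µM, 0.0105% of genes were called depleted and 0.0367% enriched, and no member was. At an unadjusted exact p below 0.05, 6 members were depleted and 4 enriched, beside 5.68% and 6.04% of all genes. At 0.5 µM, 0% of genes were called depleted and 0.00524% enriched. At an unadjusted exact p below 0.05, 3 members were depleted and 10 enriched there, beside 6.09% and 7.15% of all genes. Enriched here means high among guides of like count, not above untreated cells. MRPL4 counted as enriched at a median of -1.40, with 4 of 4 guides below 0. MRPL20 (-0.78), MRPL52 (-0.36), MRPS2 (-0.31) and MRPL39 (-0.30) did too, and the others counted as enriched had medians above 0. The large subunit had medians of -0.36 and -0.85 at the 2 doses, and the small subunit -0.29 and -0.78. MRPL15 had 0.10 and -0.29 and MRPS5 0.12 and 0.05, so neither showed a fold near that of MRPL15 in RKO. Both doses share the untreated library, and the RKO dose was higher, so the values stand side by side only.

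The guides of the members scattered more at the higher dose, as did those of all genes. Of the member guides, 31.5% were below -1 and 13.1% above 1 at 0.38 µM, and 48.9% and 26.9% at 0.5 µM. Of all targeting guides, 19.7% and 17.1% were at 0.38 µM, and 39.8% and 36.6% at 0.5 µM. The range between a gene's lowest and highest guide had a median of 2.82 log2 units at 0.38 µM and 4.45 at 0.5 µM. At 0.38 µM the smallest p belonged to MRPL9, at -1.42 with an exact adjusted p of 0.532, and MRPL48 had -1.95. The lowest medians were those of MRPL37 (-4.06), MRPS26 (-2.50) and MRPS34 (-2.14), and the highest those of MRPS11 (1.18), MRPL19 (1.13) and MRPL34 (0.71). At 0.5 µM the smallest p belonged to MRPL28, at 1.79 with an exact adjusted p of 0.309. The lowest medians there were those of MRPS27 (-3.66), MRPL16 (-2.99) and MRPL2 (-2.96), and the highest those of MRPL48 (3.82), MRPL54 (2.60) and MRPS26 (2.33).

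MRPL48 shows how single guides moved. Its 3 tested guides had 1382, 700 and 424 counts in untreated SW620 cells, 258, 169 and 130 at 0.38 µM, and 1164, 61793 and 1889 at 0.5 µM. The guide with 61793 counts alone made up 33.2% of all member counts in that library. Between the doses, 0.5 over 0.38 µM, the median fold of the members was -0.03 and 0 were called, where 0% of genes were called in either direction; 1 member was depleted and 7 enriched at an unadjusted exact p below 0.05, beside 5.17% and 5.74% of all genes. MRPL48, at 5.42, had the smallest p of these, with an exact adjusted value of 0.625.

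Activation of the same genes left no member called in any of the 5 comparisons. Over 20 untreated days the median log2 fold was 0.09 in RKO and -0.01 in SW620, where all genes had 0.02 and 0.01. In RKO 0.101% of genes were called depleted and 0% enriched, and in SW620 0.192% and 0%. Of the members, 4 were depleted and 4 enriched in RKO, and 3 and 4 in SW620, at an unadjusted exact p below 0.05. The shares of all genes were 5.42% and 5.53% in RKO and 5.56% and 5.34% in SW620, so the members' counts were near the background. The large subunit had medians of 0.03 and 0.00 and the small subunit 0.10 and -0.01. The extremes in RKO were MRPL42 (-0.66) and MRPL58 (0.69), the release factor, and in SW620 MRPS26 (-0.45) and MRPL41 (0.57).

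With oxaliplatin, the guides of the whole RKO activation library scattered widely. Below -1 were 41.5% of the member guides and 48.4% of all targeting guides, and above 1 were 36.6% and 33.1%. All genes had a median log2 fold of -0.82 and non-targeting guides 2.25, and the members lay between, at -0.20, with the large subunit at -0.37 and the small subunit at 0.57. The median range within a gene was 6.06 log2 units, and 24 of the 224 member guides had 0 counts with oxaliplatin, against 0 in untreated RKO cells. The 14.3% of all guides at 0 in the treated library stands beside 10.7% for the members. MRPS26 is an example, with 0, 27 and 0 counts in treated cells and 645, 386 and 574 in untreated ones. It had the lowest median (-5.87) and an exact adjusted p of 0.932. Called depleted were 0.00533% of genes and enriched 0%, and 4 and 3 of the members were below an unadjusted exact p of 0.05, beside 5.17% and 5.42% of all genes.

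In SW620 activation cells the medians of the members were 0.15 at 0.38 µM and -0.11 at 0.5 µM, close to the 0.01 and -0.00 of all genes. At 0.38 µM 0% of genes were called depleted and 0.0426% enriched, and at 0.5 µM 0.0107% and 0.0373%. Of the members, 3 were depleted and 2 enriched at 0.38 µM, and 3 and 3 at 0.5 µM, at an unadjusted exact p below 0.05. The shares of all genes were 5.22% and 5.2% at 0.38 µM and 5.04% and 5.24% at 0.5 µM. MRPL15 had the smallest p of the members at 0.38 µM. Its guides had 107, 77 and 102 counts in untreated SW620 activation cells, 92, 57 and 720 at 0.38 µM, and 341, 544 and 429 at 0.5 µM. The untreated library held 3647823 counts and the treated ones 26141162 and 11898882. After scaling, the median fold was -2.59 at 0.38 µM and 0.89 at 0.5 µM, with exact adjusted p values of 0.920 and 1. MRPS25, with 1, 167 and 78 counts at 0.5 µM and 43, 120 and 104 in untreated cells, had the smallest p at that dose, at -1.54 with an exact adjusted p of 0.694.

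**Figure D5:**
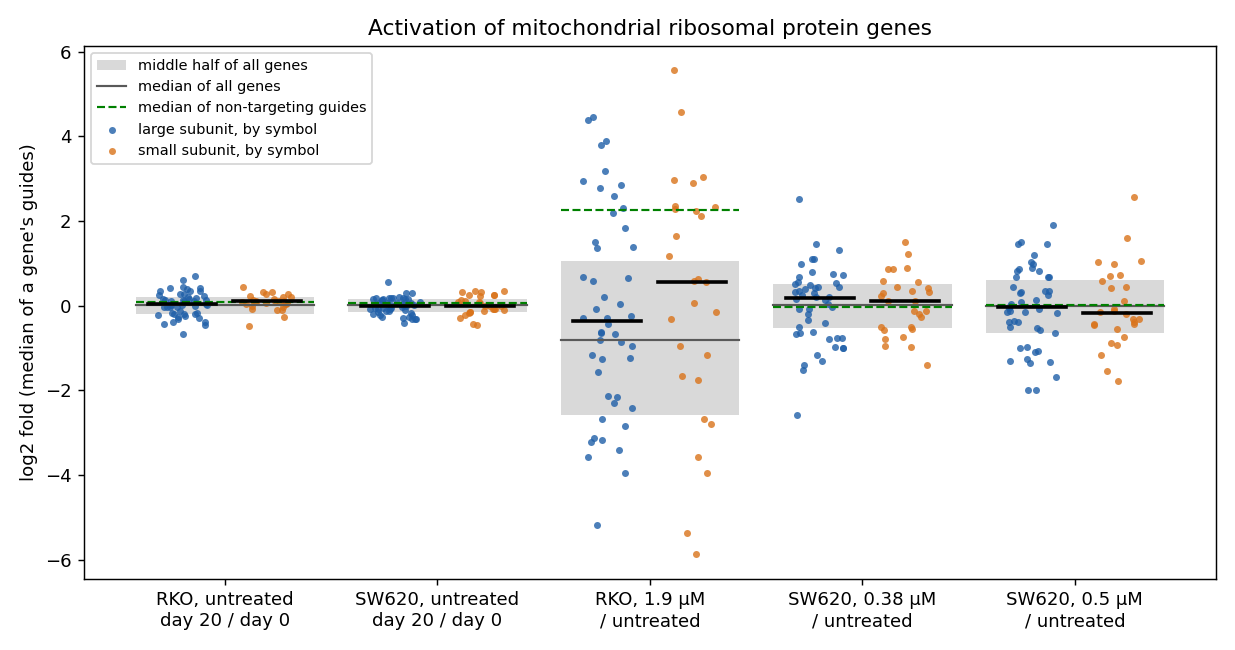
Median log2 fold of each mitochondrial ribosomal protein's guides in the 5 activation comparisons, with black bars at the subunit medians, the grey band between the quartiles of all genes and dashed lines at the median of the non-targeting guides. The points lie around the medians of all genes without drug, and in RKO with oxaliplatin they spread between -5.87 and 5.56.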

How the data were processed

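The authors deposited, for each of the 4 screens, a table of raw counts per guide and a table of the same counts on a normalized scale (a signal), which the file values show to be each count column times 1 constant. The submitters' processing notes name MAGeCK 0.5.7 and cutadapt 4.0, whose roles and settings, like any genome build, are not given in the sources used here. Genes keep the symbols of the files. All 14 count columns were matched to samples by name.

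Counts were scaled by median-ratio size factors within a screen. Guides with a scaled day 0 count under 20 were left out, and log2 folds (pseudocount 5) were centred and divided by their spread in 50 bins of mean scaled count. Genes with at least 3 (knockout) or 2 (activation) guides were scored by robust rank aggregation (rank shares up to 0.25), with the exact p under uniform ranks and Benjamini-Hochberg adjustment over all genes. The scripts (Python 3.11.15, numpy 2.4.6, scipy 1.17.1, pandas 2.3.3) were tested on simulated data. Median intervals are 95% order-statistic intervals over genes, and Wilson intervals cover counting error only, because the amplified reads carried no molecular identifiers, as far as the labels say.

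The members and lists were chosen with earlier results of these data known. Genes were named by rule: per knockout comparison up to 15 called members per direction by p (the 5 smallest p where fewer than 5 passed), the 3 lowest and 3 highest medians, those called in both lines, MRPL15 and MRPS5; per activation comparison the 3 smallest p per direction; and 2 called members per other list. Others were chosen after their values were seen. No guide sequence is printed, because the tables name guides by number.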

Additional observations from a re-analysis of the deposited data

Results flagged for a closer look

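The knockouts of mitochondrial ribosomal proteins differed between the lines by the test of the difference itself. Over 20 untreated days, 54 of the 77 genes were called lower in RKO than in SW620 and 0 higher (exact rank-aggregation p, adjusted over all genes, below 0.10). Of all 19093 genes tested, 7.01% were called lower and 0.0314% higher. Other sets differed in the same direction. Ranked by day 0 count, 64 of 77 members were called lower in RKO. So were 49 of 87 cytosolic ribosomal proteins and 32 of 47 NDUF genes. The median difference of the members was -2.09 log2 units. The difference rests on 1 library per line and time, and the number of cell divisions in each line was not tested.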

How the results depend on the processing

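Of the counts and medians recomputed under the alternatives, 336 stayed within their limits (1.5 times for a count, the 95% interval for a median or a difference of medians) and 12 moved. The depleted count was 52 to 69 of 77 in RKO, 12 to 14 in SW620 and 50 to 64 for the difference between lines, and the median of members stayed between -2.86 and -2.38 in RKO. The 2 enriched calls in RKO with oxaliplatin became 1 with a filter on the mean count, 1 with folds not standardised, and 0 with bins of the control count or with day 0 as control, where 9 members were depleted instead. With day 0 as control, the median of members was -1.96 in RKO, -0.66 in SW620 at 0.38 µM and -1.21 at 0.5 µM, and MRPL15 (-1.25) and MRPS5 (-1.66) changed sign; there the other library of the ratio is a different one. Scaling by non-targeting guides shifts the median of all genes, by -0.50 and -0.26 in the growth of RKO and SW620, by -0.24 in RKO with oxaliplatin, by -0.25, -0.95 and -0.68 in SW620 at 0.38 µM, 0.5 µM and between doses, and by -2.14 in RKO activation with oxaliplatin. The members moved with it, to -0.68 in SW620 growth, -1.70 at 0.5 µM, -0.70 between doses and -2.38 in RKO activation with oxaliplatin. Relative to all genes they stayed lower in the growth of both lines (-2.45 and -0.45) and higher in RKO with oxaliplatin (0.85). Of the single genes named, 1353 values kept their direction and side of the threshold, 20 passed where they had not, 17 no longer passed and 2 changed sign. No paired analysis was possible because each group has 1 library. The depth limits what can be said of strongly lost guides, since 27 of 308 member guides had 0 counts in untreated RKO cells.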
